A study of Mus musculus with 4 samples.

Results

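Among Lin-Sca1+cKit+ (LSK) bone marrow cells, the sorted mouse population that holds the blood stem cells and multipotent progenitors, a subset carried little RNA of the genes used to mark neutrophil, platelet and erythroid commitment and high levels of the immediate early transcription factor genes Egr1, Nr4a1 and Atf3. These immediate early-high cells were defined from the counts. A cell had at least 1000 unique molecular identifiers (UMIs, each one captured RNA molecule) of which at most 10% were mitochondrial, and no other library held its barcode with 3 times as many UMIs or more. Per 10000 UMIs of the cell, Egr1, Nr4a1 and Atf3 summed to at least 10, the neutrophil genes Mpo, Ctsg and Prtn3 to less than 5, and the neutrophil elastase gene Elane was under 5, the platelet gene Pf4 under 2 and the erythroid gene Car1 under 3. The cell had 0 UMIs of the stem cell genes Procr and Mecom. Of 25242 deposited barcodes, 13892 passed the depth, mitochondrial and barcode filters, 2388 of these had low lineage RNA and no Procr or Mecom (unprimed cells), and 248 of the unprimed cells were immediate early-high. The 2140 unprimed cells below the immediate early threshold served as the comparison throughout.

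Single-cell RNA was counted in 4 libraries, 2 from control mice, which carried floxed Nup358 alleles (fl/fl; wild-type in the labels), and 2 from knockout mice, which were fl/fl and carried R26-CreERT2, a tamoxifen-activated Cre recombinase expressed in all tissues. All mice were adult and received tamoxifen, and each library was pooled from 3 bone marrows. Cre excises exon 2 of Nup358 (Ranbp2 in the files), which 3′ counting does not read, so Ranbp2 counts did not check the labels. Ranbp2 measured 109.6 and 86.4 CPM in controls against 133 and 126 in knockouts below the threshold and 107 and 105 CPM in controls against 69.0 and 146 in knockouts in the immediate early-high cells. The immediate early-high cells numbered 167 (control replicate 1), 44 (control replicate 2), 13 (knockout replicate 1) and 24 (knockout replicate 2), and values per library are given in this order of replicates. Their summed UMIs were 540416, 408163, 57986 and 96033 in the same order. The sums behind the floors on counts given below held 540404, 408154, 57986 and 96031 UMIs.

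The libraries were unlike each other before any gate. The barcodes removed because another library held them with at least 3 times the UMIs made up 14.8% of control replicate 1, 81.8% of control replicate 2, 65.3% of knockout replicate 1 and 18.8% of knockout replicate 2. Of the 248 immediate early-high cells, 43 had a barcode that also occurred in another library, and 38 of these 43 were in control replicate 2. A barcode can be shared by chance or when reads are assigned to the wrong library, and how many UMIs of these kept cells came from another library was not tested. Depth differed as well, with a median of 6272 UMIs per kept cell in control replicate 1 and 13238, 17821 and 14622 in the other three. The gate on Mpo, Ctsg and Prtn3 alone removed 81.3% and 53.1% of kept cells in controls but 46.7% and 32.3% in knockouts.

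Immediate early genes are switched on within minutes of a signal, without new protein synthesis, when kinases activate factors already bound at their promoters, such as the serum response factor on CArG boxes and CREB on cAMP response elements. Their products include the AP-1 subunits of the Fos and Jun families, the zinc finger factor Egr1, the orphan nuclear receptor Nr4a1 and the CREB family member Atf3, together with proteins that shorten the response, such as the mRNA decay factor Zfp36 and the phosphatase Dusp1. In blood progenitors these genes respond to cytokines and stress.

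The sequences before the RefSeq start sites of 3 of the partner genes described here show such elements. RefSeq promoter sequence of GRCm38.p6 is printed 5′ to 3′ on the gene's strand, 250 bases ending just before the start, with the matched element in capitals. A CArG box lies 58 bases before the start of Zfp36, and the cAMP response element TGACGTCA lies 166 bases before the start of Btg2 and 143 before that of Dusp1.
Zfp36, chr7:28379229-28379478, minus strand: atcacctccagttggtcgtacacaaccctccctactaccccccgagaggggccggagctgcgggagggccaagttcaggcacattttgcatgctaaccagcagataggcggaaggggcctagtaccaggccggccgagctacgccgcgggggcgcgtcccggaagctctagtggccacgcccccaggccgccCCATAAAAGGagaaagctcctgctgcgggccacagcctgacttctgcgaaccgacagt
Btg2, chr1:134079156-134079405, minus strand: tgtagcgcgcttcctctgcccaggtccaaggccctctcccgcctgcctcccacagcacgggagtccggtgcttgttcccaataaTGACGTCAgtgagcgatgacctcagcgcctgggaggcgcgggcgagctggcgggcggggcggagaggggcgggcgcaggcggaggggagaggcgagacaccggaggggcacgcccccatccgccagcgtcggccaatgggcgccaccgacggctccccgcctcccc
Dusp1, chr17:26508473-26508722, minus strand: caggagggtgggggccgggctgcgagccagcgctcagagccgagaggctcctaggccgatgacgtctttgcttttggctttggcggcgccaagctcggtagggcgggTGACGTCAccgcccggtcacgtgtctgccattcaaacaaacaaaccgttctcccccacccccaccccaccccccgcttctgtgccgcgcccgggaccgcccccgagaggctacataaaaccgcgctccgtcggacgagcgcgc
Both strands were searched in 27025 promoter windows of this length, and TGACGTCA, which reads the same on both strands, does not contain TGACTCA. TGACGTCA occurred in 1.62% of them, the CArG box in 1.4%, the AP-1 site TGACTCA in 4.43% and the Egr site GCGTGGGCG in 0.54%. Of the 13 genes on the lists of AP-1 subunits, Egr and Nr4a genes and other immediate early genes that were higher in the immediate early-high cells over all 4 libraries, 12 had a window. Of these 12, 1 held TGACGTCA (Btg2), 1 held a CArG box (Zfp36), and none held either of the other motifs. A match of letters is a description and shows no binding. Dusp1 is on the list of kinase-pathway feedback genes and is not among the 13.

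The threshold was mostly an Egr1 threshold. Egr1 UMIs were present in 247 of the 248 cells, Nr4a1 UMIs in 119 and Atf3 UMIs in 36, and 19 cells had UMIs of all 3 genes. Egr1 had the most UMIs of the 3 in 231 cells, Atf3 in 5 and Nr4a1 in 3, with 9 ties. Each cell was placed by 2 to 26 UMIs of these genes, with a median of 6, and the level in the cells had a median of 15.3 and a highest value of 87.1 per 10000 UMIs. The 20 cells just inside the threshold had 10.0 to 10.8 per 10000 UMIs and were all from control libraries, and the 20 just outside had 9.50 to 9.995 and included 18 control cells and 2 knockout cells. These values chose the cells and are given as a description.

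Summed over the immediate early-high cells, Egr1 was at 1425 and 1210.3 counts per 1000000 UMIs (CPM) in controls against 1879.8 and 1499.5 in knockouts. The values below the threshold were 253 and 239 CPM in controls against 56.5 and 66.7 in knockouts. Nr4a1 (chr15:101254269-101274795, plus strand, mm10) was at 189 and 265 CPM in controls against 0 and 62.5 in knockouts in the immediate early-high cells, and Atf3 (chr1:191170296-191218039, minus strand) at 68.5 and 53.9 CPM in controls against 0 and 115 in knockouts. Egr1 was thus high in all 4 libraries, as the rule fixes, while the 13 cells of knockout replicate 1 held 0 UMIs of both other genes. The 8 lineage and stem genes of the rule summed to 174, 208, 0 and 62.5 CPM. The cells were shallow in 3 of the 4 libraries, with a median of 2774 UMIs against 4164 below the threshold in control replicate 1, 3929 against 8111 in knockout replicate 1 and 2433.5 against 11148 in knockout replicate 2, and 9420.5 against 11374 in control replicate 2.

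**Figure D1:**
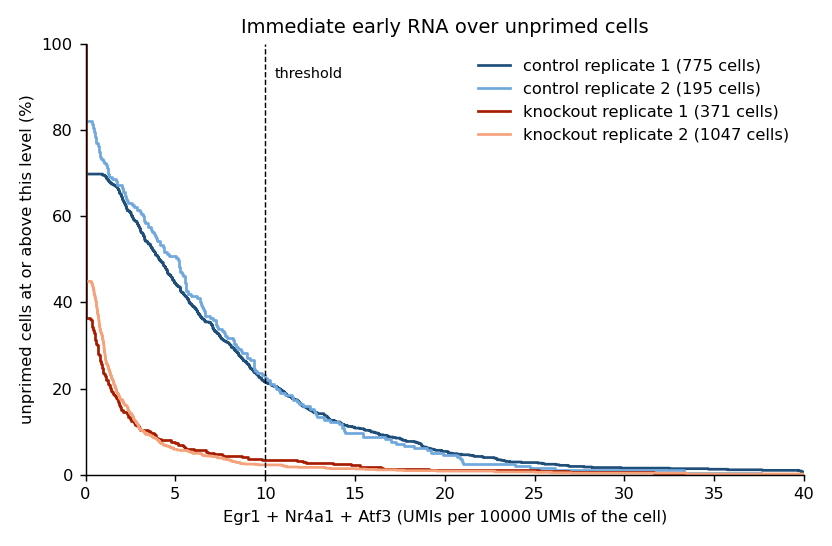
For each library, the percentage of unprimed cells (vertical axis) whose summed Egr1, Nr4a1 and Atf3 level was at or above the value on the horizontal axis, in UMIs per 10000 UMIs of the cell; the dashed line is the threshold of 10 that defined the immediate early-high cells. At the threshold the control curves stand at 21.5% and 22.6% and the knockout curves at 3.50% and 2.29%, and the median levels are 4.12 and 5.16 against 0 and 0.

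The first question was whether the frequency of these cells differed between genotypes, which the rule did not use. They made up 21.5% of unprimed cells in control replicate 1 (167 of 775, exact 95% interval 18.7 to 24.6) and 22.6% in control replicate 2 (44 of 195, 16.9 to 29.1). In the knockout libraries they made up 3.50% (13 of 371, 1.88 to 5.92) and 2.29% (24 of 1047, 1.47 to 3.39). The intervals cover counting error only. The libraries of the genotypes did not overlap: the mean was 22.1% ± 0.718 in controls and 2.90% ± 0.857 in knockouts (SD, n = 2 libraries each), a difference of 19.2 percentage points, and the exact two-sided permutation test over the 4 libraries gave p = 0.333, the smallest value this design allows.

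The difference kept its direction in each of the following recounts, and its size moved. When every unprimed cell was thinned to 1000 UMIs, 40.4% and 37.9% of control cells and 10.2% and 10.6% of knockout cells kept at least 1 UMI of the 3 genes. Among cells of at least 5000 UMIs, 10.4% and 23.0% of control cells and 2.26% and 1.09% of knockout cells passed the threshold. Unthinned, 30.2% and 17.9% of control cells and 63.6% and 55.1% of knockout cells had no UMI of the 3 genes. The treatment of shared barcodes mattered most for control replicate 2: with copied barcodes kept, its share was 5.53% against 20.1% in control replicate 1 and 4.78% and 2.33% in the knockouts, and with only barcodes found in a single library it was 16.2% (6 of 37) against 21.9%, 5.05% and 5.53%.

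The same contrast was seen outside the unprimed cells. Of cells with Procr or Mecom and no lineage RNA, 25.6% and 33.9% passed the same threshold of Egr1, Nr4a1 and Atf3 in controls but 0.483% and 0.381% in knockouts. Of cells with neutrophil RNA, 11.4% and 12.9% passed in controls and 0.545% and 0.371% in knockouts. Over all kept cells the shares were 13.2% and 20.5% against 1.21% and 1.02%. Each class gave p = 0.333 in the exact permutation test. Genotype, sort and library preparation coincide with the library here, and the labels name no batch, so they cannot be told apart.

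**Figure D2:**
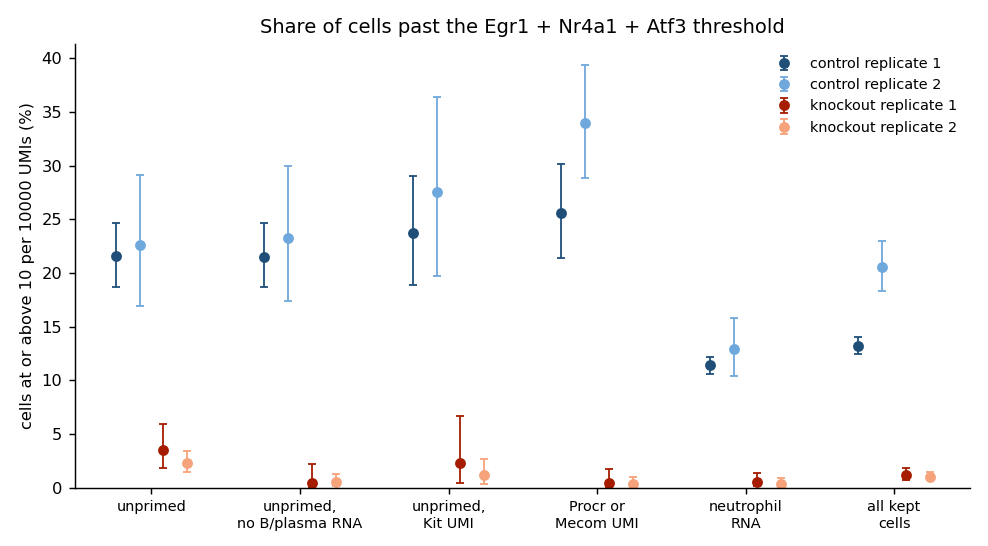
Percentage of cells in each library (vertical axis) whose summed Egr1, Nr4a1 and Atf3 level was at least 10 per 10000 UMIs, for 6 classes of cells (horizontal axis); points are libraries and bars are exact 95% binomial intervals, which cover counting error only. Both control libraries lie above both knockout libraries in each class shown, for unprimed cells at 21.5% and 22.6% against 3.50% and 2.29%.

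The label "unprimed" went against the data for most of the knockout cells. A list of 12 B-cell genes and a list of 8 plasma-cell genes, the latter chosen after the cells were seen, marked a cell when it summed to at least 10 per 10000 UMIs with at least 2 UMIs (B cell) or at least 20 per 10000 UMIs (plasma cell). Of the immediate early-high cells, 3 of 167 and 1 of 44 control cells and 12 of 13 and 20 of 24 knockout cells were marked by either list. Below the threshold, 10 of 608 and 9 of 151 control cells and 113 of 358 and 241 of 1023 knockout cells were. The 37 knockout cells are therefore described by the rule and by their leading genes and not as unprimed progenitors.

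The B-lineage genes themselves showed the same split. Jchain, the joining chain of secreted antibodies, was at 959 and 1262 CPM in controls against 63274 and 33333 in knockouts in the immediate early-high cells. Mzb1, an endoplasmic reticulum protein of antibody-secreting cells, was at 50.0 and 100.5 CPM in controls against 7243 and 2395 in knockouts. Cd79a, part of the B-cell receptor, was at 16.7 and 7.35 CPM in controls against 1104 and 1104 in knockouts. Each was higher in both knockout libraries than in either control library. The plasma-cell list summed to 207 and 262 CPM in the control cells and to 15487 and 6706 CPM in the knockout cells, and the B-cell list to 83.3 and 36.8 against 1863 and 2822 CPM, with Cd79b its most abundant gene in control cells and Cd79a in knockout cells. In the control cells 7 and 9 of the 12 B-cell genes were at 0, among them Ebf1 and Pax5.

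Kit, the receptor on which the cells were sorted, had a UMI in 40.7% and 75.0% of control and 23.1% and 20.8% of knockout immediate early-high cells, and in 36.0%, 57.6%, 35.2% and 42.0% of the cells below the threshold. Among knockout immediate early-high cells with B-cell or plasma-cell RNA, 5 of 32 had a Kit UMI (median depth 2455.5 UMIs). Below the threshold, 32 of the 354 knockout cells with such RNA did (median 3954.5). Early B-lineage cells can express Kit, so these counts are not a measured background for it. Thinned to 1000 UMIs, Kit was detected in 19.8%, 9.09%, 15.4% and 8.33% of immediate early-high cells and in 11.3%, 9.27%, 4.75% and 4.99% of cells below the threshold. In the knockout libraries the immediate early-high cells thus had the lower share as counted and the higher share when thinned. The thinned shares there rest on 2 of 13 and 2 of 24 cells, and their exact 95% intervals (1.92% to 45.4% and 1.03% to 26.997%) held the shares below the threshold. So did the interval of control replicate 2 (2.53% to 21.7%). The interval of control replicate 1 (14.0% to 26.6%) lay above its 11.3% below the threshold. Intervals over cells cover counting error only, so no conclusion on Kit is drawn.

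Leaving out cells with B-cell or plasma-cell RNA widened the difference in frequency. The lists mark 32 of 37 knockout but 4 of 211 control immediate early-high cells, and 25.6% of knockout cells below the threshold. A wider difference was thus built into this exclusion and is no separate result. The remaining shares were 21.5% and 23.2% in controls and 0.407% (1 cell) and 0.509% (4 cells) in knockouts, with means of 22.4% and 0.458% and p = 0.333 in the exact permutation test. Among unprimed cells with a Kit UMI the shares were 23.7% and 27.5% against 2.33% and 1.15%. Within the unprimed cells that did have B-cell or plasma-cell RNA, 3 of 13 and 1 of 10 control cells and 9.60% (12 of 125) and 7.66% (20 of 261) of knockout cells passed the threshold.

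**Figure D3:**
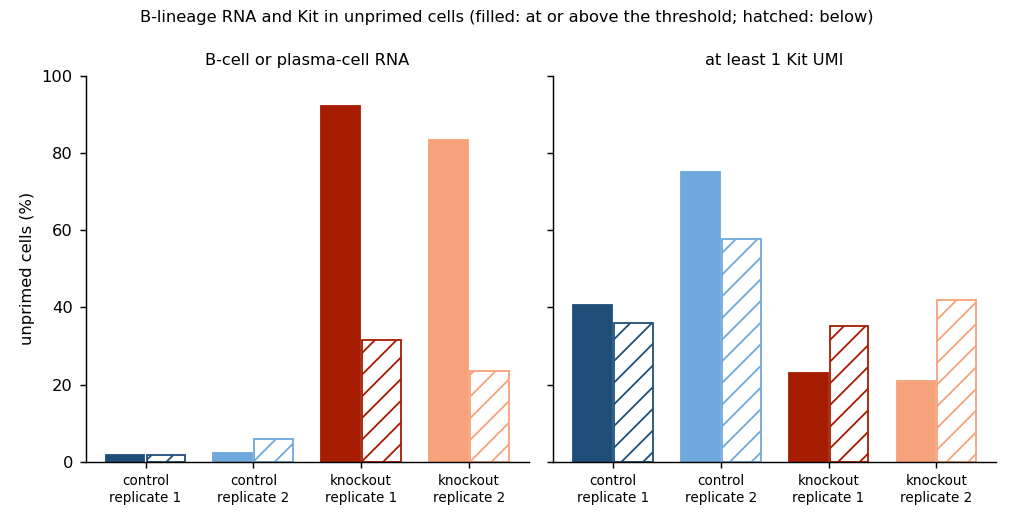
Percentage of unprimed cells (vertical axis) in each library (horizontal axis) with B-cell or plasma-cell RNA, left, and with at least 1 Kit UMI, right; filled bars are immediate early-high cells and hatched bars cells below the threshold. B-cell or plasma-cell RNA was found in 4 of 211 control and 32 of 37 knockout immediate early-high cells.

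RNA of other lineages was present as well. Monocyte and dendritic cell RNA (12 genes, at least 10 per 10000 UMIs) was carried by 68, 8, 12 and 22 immediate early-high cells in the order control replicates 1 and 2 and knockout replicates 1 and 2. The shares were 40.7%, 18.2%, 92.3% and 91.7%, against 35.0%, 32.5%, 52.5% and 35.6% below the threshold. The most abundant gene of that list was Cst3, a cysteine protease inhibitor, in both control libraries (618 and 456 CPM) and the antigen-presentation gene Cd74 in both knockout libraries (4536 and 6165 CPM). Erythroid RNA was carried by 57, 12, 0 and 2 cells, led by carbonic anhydrase Car2 in the controls and the biliverdin reductase Blvrb in the knockouts. These were 34.1%, 27.3%, 0% and 8.33%, against 24.0%, 20.5%, 9.22% and 14.6% below the threshold. Megakaryocyte RNA was carried by 26, 2, 0 and 1 cells. These were 15.6%, 4.55%, 0% and 4.17%, against 11.8%, 0.662%, 2.23% and 3.52% below the threshold. Early lymphoid RNA was carried by 16, 7, 1 and 2 cells, which was 9.58%, 15.9%, 7.69% and 8.33% of the immediate early-high cells against 20.7%, 35.8%, 24.6% and 22.8% below the threshold. Basophil and mast cell RNA was carried by 6, 0, 1 and 1 cells, and in knockout replicate 1 it summed to 1897 CPM, of which Cpa3, a mast cell protease, made up 1276 CPM. Neutrophil genes outside the rule were carried by 2 cells in all, T and NK cell genes by 3, and plasmacytoid dendritic cell and stromal genes by 0. At least 1 of the 10 lists fixed for other lineages marked 70.1% and 54.5% of control and 100% and 95.8% of knockout immediate early-high cells, against 68.6%, 74.8%, 70.7% and 68.7% below the threshold. These lists share genes with progenitors, and their part in the comparisons was not tested except where cells carrying them were left out.

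The next question was which other genes were higher or lower in immediate early-high cells than in unprimed cells of the same library below the threshold. The cells' UMIs were summed per library and state, and edgeR's quasi-likelihood test was applied with the library as a block. Of 9580 genes tested outside the rule, 96 (1%) passed an adjusted p of 0.05, 51 higher (0.532%) and 45 lower (0.47%). Each value is a share of the summed UMIs of its cells, and in such sums fewer cells of a type and less RNA per cell cannot be told apart. Without knockout replicate 1, which held 13 of the immediate early-high cells, 22 genes passed, 2 higher and 20 lower. Without control replicate 1 the count was 178, without control replicate 2 it was 233, with DESeq2 62, and with the threshold at 20, which left 4 cells in knockout replicate 1 and so also dropped its sum, it was 39.

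AP-1 subunit genes were higher in the cells chosen on Egr1, Nr4a1 and Atf3. Of 10 AP-1 genes tested, 5 rose (median log2 fold change 1.50 over the list, -0.06 over all genes tested): Fos, Fosb, Jun, Junb and Jund. Fos measured 2949.7 and 2339.8 CPM (controls) and 4156 and 2697 CPM (knockouts) in the immediate early-high cells, against 1323 and 1097 CPM (controls) and 403 and 405 CPM (knockouts) below the threshold. The 4 immediate early-high values were all above the 4 others (log2 fold change 2.01 ± 0.35 SE, adjusted p = 0.00550). Jun measured 2252 and 1281 CPM (controls) and 5225 and 2374 CPM (knockouts) in the immediate early-high cells, against 975 and 715 CPM (controls) and 348 and 232 CPM (knockouts) below the threshold (log2 fold change 2.26 ± 0.43 SE, adjusted p = 0.0114). Fosb measured 1260.2 and 600.3 CPM (controls) and 3415 and 1833 CPM (knockouts) in the immediate early-high cells, against 525 and 272 CPM (controls) and 275 and 204 CPM (knockouts) below the threshold (log2 fold change 2.23 ± 0.38 SE, adjusted p = 0.00518). For Junb, a Jun family subunit, the log2 fold change was 1.96 ± 0.36 (adjusted p = 0.00867), and for Jund, the most constitutive member of that family, 1.77 ± 0.34 (adjusted p = 0.0121). None of the 5 passed without knockout replicate 1, where their log2 fold changes were between 1.43 and 1.81 and their adjusted p between 0.126 and 0.244, and Jun and Jund also missed without knockout replicate 2 (adjusted p = 0.0517 and 0.0789).

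Other immediate early genes followed in part. Of 30 tested, 7 rose (median log2 fold change 0.80) and 23 did not pass. Without knockout replicate 1 only 2 genes of the whole fit passed as higher, and the B-cell gene Ms4a1 was among them. Most of the rises in this and the next paragraph therefore lost their call in that fit. Btg2 measured 283 and 360.2 CPM (controls) and 535 and 249.9 CPM (knockouts) in the immediate early-high cells, against 112 and 162 CPM (controls) and 56.8 and 48.2 CPM (knockouts) below the threshold (log2 fold change 1.88 ± 0.32 SE, adjusted p = 0.00478). Btg2 is an antiproliferative cofactor, and its immediate early-high values exceeded all values below the threshold. Zfp36 measured 241 and 338 CPM (controls) and 586 and 302 CPM (knockouts) in the immediate early-high cells, against 101 and 189.9 CPM (controls) and 61.6 and 55.4 CPM (knockouts) below the threshold (log2 fold change 1.81 ± 0.34 SE, adjusted p = 0.0102). Ier2 measured 829 and 588 CPM (controls) and 1207 and 708 CPM (knockouts) in the immediate early-high cells, against 397 and 317 CPM (controls) and 130.1 and 173 CPM (knockouts) below the threshold (log2 fold change 1.70 ± 0.34 SE, adjusted p = 0.0159). The other 4 were the zinc finger factors Klf2 and Klf6, the decay factor Zfp36l1 and the GTPase Rhob, with log2 fold changes of 1.60, 1.30, 1.35 and 1.98. Egr2 passed among the 4 tested genes of the Egr and Nr4a families, at 1.85 and 4.90 CPM in controls against 207 and 52.1 in knockouts in the immediate early-high cells and 1.43 and 3.30 CPM in controls against 3.26 and 0.498 in knockouts below the threshold.

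Feedback inhibitors and stress genes gave fewer calls. Of 12 genes of kinase-pathway feedback, 2 rose. Dusp1 measured 492 and 402 CPM (controls) and 414 and 333 CPM (knockouts) in the immediate early-high cells, against 269 and 222 CPM (controls) and 92.3 and 128 CPM (knockouts) below the threshold (log2 fold change 1.20 ± 0.27 SE, adjusted p = 0.0381). Rgs1 measured 633 and 757 CPM (controls) and 466 and 167 CPM (knockouts) in the immediate early-high cells, against 350.5 and 376 CPM (controls) and 64.9 and 76.6 CPM (knockouts) below the threshold (log2 fold change 1.33 ± 0.31 SE, adjusted p = 0.0474). Rgs1 shuts off G protein signalling. Among 19 NF-kB targets only Nfkbiz passed (log2 fold change 1.88), among 14 genes of the ATF4 and unfolded protein responses only Ppp1r15a, a phosphatase subunit that reverses translational arrest (1.45), and among 10 p53 targets only Trp53inp1, whose difference was reversed in control cells without B-cell or plasma-cell RNA (log2 -0.28). Of 12 heat shock genes, 8 JAK-STAT feedback genes, 19 interferon genes and 15 cytokine receptor genes, edgeR and DESeq2 called 0, with 4, 1, 0 and 5 at an unadjusted p under 0.05 in edgeR.

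**Figure D4:**
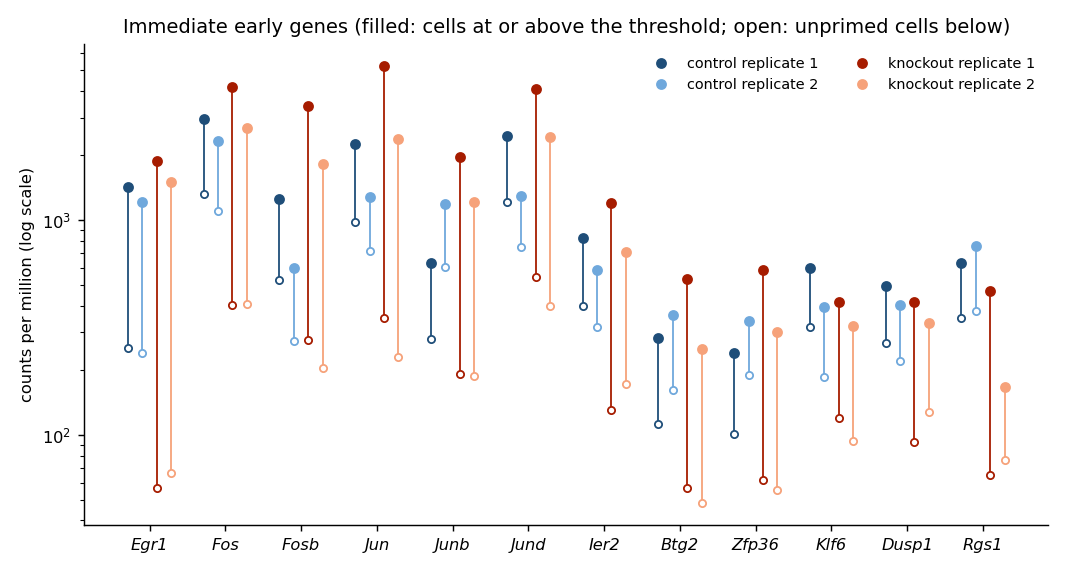
CPM (vertical axis, log scale) of Egr1 and 11 genes outside the rule in each library, with the immediate early-high cells as filled points joined to the unprimed cells below the threshold as open points. For each gene and library shown, the filled point lies above the open one, and for Fos the gap is wider in both knockout libraries than in either control library.

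Cell cycle genes had lower values. Of 20 genes of the G2 and M phases, 5 fell and none rose by edgeR (median log2 fold change -1.27) and 2 passed by DESeq2, and all 20 G1/S genes had negative differences of which 0 passed by edgeR or DESeq2 and 15 had an unadjusted p under 0.05 (median -0.83). Ube2c measured 94.4 and 12.3 CPM (controls) and 0 and 52.1 CPM (knockouts) in the immediate early-high cells, against 262 and 157 CPM (controls) and 202 and 349 CPM (knockouts) below the threshold (log2 fold change -2.58 ± 0.39 SE, adjusted p = 0.00150). Ube2c, the ubiquitin-conjugating enzyme of the anaphase-promoting complex, passed in each fit that left out a library, as did the mitotic cyclin Ccnb1 (log2 fold change -2.12 ± 0.37, adjusted p = 0.00534). Top2a measured 349.7 and 90.7 CPM (controls) and 51.7 and 219 CPM (knockouts) in the immediate early-high cells, against 579 and 201 CPM (controls) and 337 and 509 CPM (knockouts) below the threshold (log2 fold change -1.29 ± 0.30 SE, adjusted p = 0.0424). Cdk1 and Ccna2 were the other 2 that fell. Dntt, the lymphoid DNA polymerase of early lymphoid progenitors, was the only 1 of 6 early lymphoid genes to pass: Dntt measured 62.9 and 211 CPM (controls) and 17.2 and 0 CPM (knockouts) in the immediate early-high cells, against 267 and 558 CPM (controls) and 295 and 350.4 CPM (knockouts) below the threshold (log2 fold change -2.43 ± 0.42 SE, adjusted p = 0.00534).

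The largest falls by the rule for naming included neutrophil and globin genes. Of 11 neutrophil genes tested, 7 fell, and of 12 erythroid genes 5 fell, all globin or haem genes. The neutrophil list summed to 104 and 125 CPM in controls against 0 and 52.1 in knockouts in the immediate early-high cells. Below the threshold it summed to 2813 and 17844.5 against 686 and 551 CPM. Neutrophil genes and Hbb-bs thus passed the filter on counts largely through the sums below the threshold. Their falls describe these cells and are not a test of the states. S100a8, a neutrophil alarmin subunit, was at 12.95 and 22.1 CPM in controls against 0 and 0 in knockouts in the immediate early-high cells and at 947 and 7118 CPM in controls against 270.2 and 189 in knockouts below the threshold, where 9, 9, 7 and 11 cells carried neutrophil RNA in the 4 libraries in that order. Hbb-bs, a beta globin, was at 1.85 and 0 CPM in controls against 0 and 0 in knockouts in the immediate early-high cells and at 1572 and 6219 CPM in controls against 3.80 and 5.81 in knockouts below the threshold. The other genes named among the 12 largest falls were Retnlg, Chil3, Wfdc21, Ltf, Lcn2, Ngp, S100a9 and Camp of neutrophils and Igll1 and Vpreb1 of the pre-B-cell receptor. The 12 largest rises were Gm684, Prlr, Egr2, Cacna1s, Irf4, Tnfrsf17, Wnt10a, St8sia6, Oosp1, Ms4a1, Pou2af1 and Dennd5b, which include the plasma-cell factor Irf4 at 3.70 and 4.90 CPM in controls against 604 and 177 in knockouts. The part of cell composition in these rises and falls was not tested in the fit over all 4 libraries.

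The comparison was therefore repeated in the control libraries, without cells that carried B-cell or plasma-cell RNA, which left 207 immediate early-high and 740 other cells. With 4 sums and the library as a block this fit has 1 residual degree of freedom, so edgeR's values rest on a spread pooled over genes, and DESeq2 is given beside it. By edgeR 559 of 8744 genes (6.39%) passed, 193 higher (2.21%) and 366 lower (4.19%), and by DESeq2 52 (0.595%), 19 higher (0.217%) and 33 lower (0.377%). The same 5 AP-1 genes passed in both, with a list median of 0.96 on the log2 scale. Fos measured 2875 and 2233 CPM at or above the threshold and 1313 and 1055 CPM below it in control replicates 1 and 2 (edgeR log2 fold change 1.05 ± 0.05, DESeq2 adjusted p = 8.29e-19). Jun measured 2138 and 1239 CPM at or above the threshold and 958 and 661 CPM below it in control replicates 1 and 2 (log2 fold change 1.00 ± 0.06, DESeq2 adjusted p = 3.03e-11). The differences in the control cells were smaller than over all 4 libraries, and they were in the same direction in both control libraries.

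Beyond AP-1, 15 of 27 other immediate early genes were higher by edgeR (median log2 fold change 0.53) and 5 by DESeq2. Ier3 measured 429 and 693 CPM at or above the threshold and 188 and 241 CPM below it in control replicates 1 and 2 (edgeR log2 fold change 1.30 ± 0.10). Nr4a2 measured 138 and 171 CPM at or above the threshold and 63.1 and 56.4 CPM below it in control replicates 1 and 2 (log2 fold change 1.28 ± 0.17, DESeq2 adjusted p = 0.0269). Ier3 is a survival factor and Nr4a2 the paralogue of Nr4a1. With only cells of at least 5000 UMIs, 5 of 9 AP-1 genes and 4 of 26 other immediate early genes were higher by edgeR (background 0.935%, 0.381% higher), with cells thinned to 1000 UMIs 5 of 6 and 9 of 17 (background 3.65%, 1.46% higher), and without any cell that carried RNA of another lineage 5 of 7 and 6 of 21 (background 1.51%, 0.829% higher). Fos, Fosb, Jun, Junb and Jund were the AP-1 genes called in the first of these.

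Part of the stem cell program was higher in the control cells by edgeR and not by DESeq2. By edgeR 10 of 22 rose (median log2 fold change 0.52), and by DESeq2 0 of 22 passed. Kit measured 183 and 171 CPM at or above the threshold and 110.4 and 93.5 CPM below it in control replicates 1 and 2 (edgeR log2 fold change 0.73 ± 0.15, DESeq2 adjusted p = 0.911). Gata2 measured 255 and 147 CPM at or above the threshold and 124 and 75.3 CPM below it in control replicates 1 and 2 (log2 fold change 0.96 ± 0.15). Among cells of at least 5000 UMIs 2 of 18 of these genes passed (median 0.54).

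Lower genes in the control cells included 18 of 20 G2/M genes (median log2 fold change -0.94) and 10 of 20 G1/S genes (-0.59) by edgeR, but 2 and 0 by DESeq2 and 2 and 0 among cells of at least 5000 UMIs, where 0.553% of all genes were lower and the medians were -0.56 and -0.32. Mki67 measured 215 and 64.6 CPM at or above the threshold and 333 and 98.1 CPM below it in control replicates 1 and 2, and Top2a measured 344 and 91.9 CPM at or above the threshold and 581 and 199.5 CPM below it in the same libraries. All 8 monocyte and dendritic cell genes tested were lower by edgeR (median -1.26) and 4 by DESeq2, and among cells of at least 5000 UMIs all 7 tested were lower (median -1.99). With cells thinned to 1000 UMIs 1 of 5 was lower (median -0.43), and without any cell that carried RNA of another lineage, which removes cells by these same genes, 0 of 3 (median -0.07). In the thinned cells 2 of 7 G2/M genes (median -0.93) and 0 of 13 G1/S genes (-0.37) were lower. Irf8 measured 22.7 and 12.4 CPM at or above the threshold and 84.0 and 78.7 CPM below it in control replicates 1 and 2 (edgeR log2 fold change -2.22 ± 0.30). Irf8 is a master factor of monocyte and dendritic cell fate. Cd74 measured 166 and 59.6 CPM at or above the threshold and 374 and 108 CPM below it in control replicates 1 and 2 (-1.15 ± 0.15). Of 12 heat shock genes 4 were lower by edgeR, with small differences such as -0.24 on the log2 scale for the chaperone Hspa8, but 0 of 12 by DESeq2 and 0 of 11 among cells of at least 5000 UMIs.

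**Figure D5:**
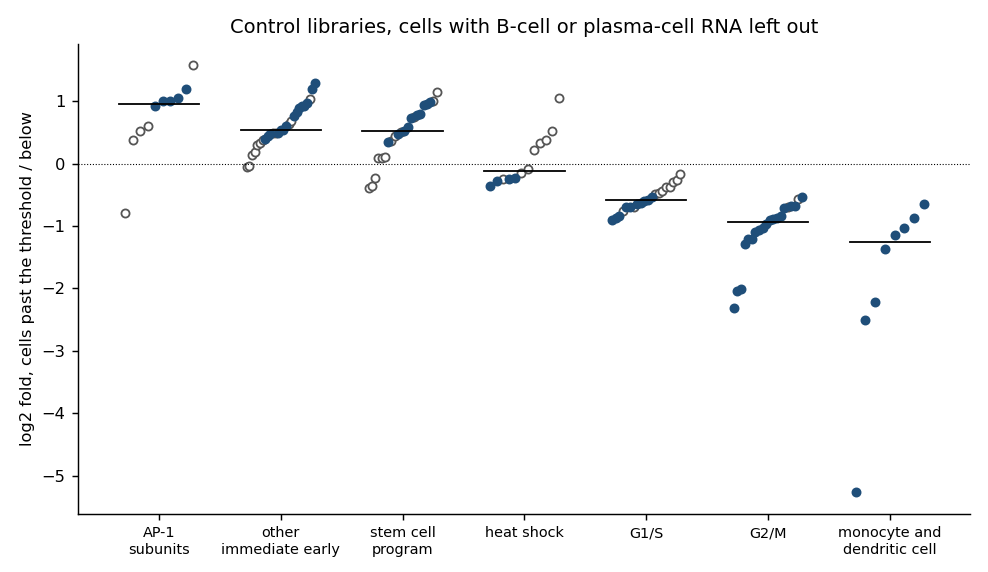
Log2 fold changes between immediate early-high cells and unprimed cells below the threshold (vertical axis) in the 2 control libraries, cells with B-cell or plasma-cell RNA left out, for the genes of 7 lists (horizontal axis); filled points passed an adjusted p of 0.05 by edgeR, open points did not, and horizontal lines are list medians. The medians were 0.96 for AP-1 subunits, 0.53 for other immediate early genes, 0.52 for the stem cell program, -0.59 for G1/S, -0.94 for G2/M and -1.26 for monocyte and dendritic cell genes.

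Whether immediate early RNA as such differed between genotypes was examined over all 2388 unprimed cells, with no threshold, so that Egr1, Nr4a1 and Atf3 could be included too. This comparison was added after the data were seen. Egr1, Nr4a1 and Atf3 set the threshold whose share had already differed between genotypes in these same cells. Their values here restate that difference and are no separate test of it. Of 10695 genes 109 passed (1.02%), 27 higher in the knockout (0.252%) and 82 lower (0.767%), and without cells carrying B-cell or plasma-cell RNA 117 of 10497 (1.11%), 16 higher (0.152%) and 101 lower (0.962%). The balance of directions over all unprimed cells moved with the knockout libraries, to 48 higher and 53 lower without knockout replicate 1 and 59 higher and 18 lower without knockout replicate 2. Egr1 was at 442 and 418 CPM in controls against 84.8 and 78.0 in knockouts (log2 fold change, knockout over control, -2.41 ± 0.19 SE, adjusted p = 0.00983). Nr4a1 was at 62.2 and 113 CPM in controls against 13.1 and 14.1 in knockouts (-2.70 ± 0.34, adjusted p = 0.0263). Both were lower in each knockout library than in each control library, and both passed when any 1 library was left out (highest adjusted p = 0.0277 for Egr1 and 0.0422 for Nr4a1). Atf3 was at 22.1 and 18.0 CPM in controls against 7.49 and 8.98 in knockouts and did not pass (adjusted p = 0.0709).

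Among genes outside the rule, Fos (chr12:85473890-85477273, plus strand, mm10) was at 1586 and 1325 CPM in controls against 461 and 423 in knockouts (log2 fold change -1.72 ± 0.21 SE, adjusted p = 0.0227). Rgs1 was at 396 and 446 CPM in controls against 71.1 and 77.3 in knockouts (log2 fold change -2.52 ± 0.21 SE, adjusted p = 0.00983). Jun was at 1182 and 819 CPM in controls against 424 and 248 in knockouts and did not pass over all unprimed cells (adjusted p = 0.0633), but passed without cells carrying B-cell or plasma-cell RNA (log2 fold change -2.16 ± 0.22, adjusted p = 0.00514). Of 11 AP-1 genes 1 fell and of 33 other immediate early genes 3 fell (Ier2, Klf6 and Btg2). Without cells carrying B-cell or plasma-cell RNA, 3 and 6 fell. The feedback genes Dusp1, Rgs1 and Rgs2 fell out of 14, and 8 of 11 B-cell genes rose. In the unprimed cells below the threshold, the B-cell list summed to 116 and 221 CPM in controls against 975 and 1663 in knockouts. Without cells carrying B-cell or plasma-cell RNA, an exclusion that uses these same genes, 3 B-cell genes were tested and 0 passed. The B-cell genes thus passed the filter on counts largely through the knockout sums, and their rise is not a test of genotype.

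These calls were lost without the shallow cells. With only unprimed cells of at least 5000 UMIs, edgeR called 0 genes at an adjusted p of 0.05, 1322 having an unadjusted p under 0.05, while the log2 fold changes of Egr1, Nr4a1 and Fos were -2.28, -2.54 and -1.59 (adjusted p = 0.147, 0.182 and 0.162). Over all unprimed cells DESeq2 called 216 genes (2.02%). Without control replicate 2, 38 genes passed. Of 13 genes named for this comparison, 4 and 7 missed without control replicates 1 and 2, and 6 and 8 without knockout replicates 1 and 2. Rgs1 passed each time, as Egr1 and Nr4a1 did, and Fos missed without knockout replicate 2 (adjusted p = 0.117). In the cells with Procr or Mecom, which lie outside the unprimed class, Egr1 was at 467 and 523 CPM in controls against 63.8 and 68.7 in knockouts and Fos at 1778 and 1760.3 CPM in controls against 409.6 and 524 in knockouts.

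Within the immediate early-high cells, 435 of 4092 genes tested (10.6%) differed between genotypes by edgeR, 315 higher in the knockout (7.7%) and 120 lower (2.93%), and 249 by DESeq2, 219 higher and 30 lower. The comparison sets 211 control cells, of which 4 carried B-cell or plasma-cell RNA, against 37 knockout cells, of which 32 did. Of the 12 B-cell genes 5 were tested, and all 5 rose by edgeR and by DESeq2. The list summed to 83.3 and 36.8 CPM in the control cells, so its genes passed the filter on counts largely through the knockout sums. Their rise describes these cells and is not a test of genotype. Of 7 monocyte and dendritic cell genes 5 rose by edgeR and by DESeq2, and Lyz2 fell by edgeR. The 5 include the antigen-presentation genes Cd74, H2-Aa and H2-Ab1, which B cells also express. Of 16 stem cell program genes 9 fell by edgeR and 4 by DESeq2, and 1, Ly6a, rose by edgeR. Ly6a, which encodes the sort marker Sca1, was at 274 and 208 CPM in controls against 4553 and 6144 in knockouts (log2 fold change 4.60 ± 0.45 SE, adjusted p = 7.49e-07). Meis1, a homeodomain factor of stem cells, was at 348 and 289 CPM in controls against 69.0 and 31.2 in knockouts (log2 fold change -2.65 ± 0.50 SE, adjusted p = 0.00119).

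The 8 largest rises by the naming rule were Fcmr, Ebf1, Vpreb3, Slpi, Sdc1, Pgam2, Ly6c2 and Ms4a1. Ebf1, the B-cell lineage factor, was at 0 and 0 CPM in controls against 51.7 and 187 in knockouts. The control side was set to a floor of 3 counts over the 948558 UMIs of the control cells. The knockout mean was 37.8-fold above this floor, and knockout replicate 1 alone 16.4-fold. The floor limits the control side only, and the knockout values have counting error of their own. Sdc1, the plasma-cell surface proteoglycan CD138, was at 1.85 and 0 CPM in controls against 293 and 302 in knockouts (log2 fold change 7.77 ± 0.65 SE, adjusted p = 1.81e-07). The 8 largest falls, Ccl5, Eng, Ddah2, Upf3b, Fam69b, Vldlr, Gm15658 and Dst, had 0 UMIs in the 154017 UMIs of the knockout cells. Eng, the TGF-beta co-receptor endoglin carried by stem cells, was at 104 and 88.2 CPM in controls against 0 and 0 in knockouts. Its control mean was 4.92-fold above a floor of 3 counts over the knockout cells. These are values of 13 and 24 knockout cells, and those without B-cell or plasma-cell RNA, 1 and 4 cells, fell under the minimum of 5 cells for a sum.

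Cells of both genotypes entered this comparison only with summed Egr1, Nr4a1 and Atf3 at the threshold or above. For genes that vary with these 3 it therefore cannot show whether RNA differs between genotypes. Under that limit, no AP-1 gene passed as lower in the knockout cells that met the threshold. Of 8 tested, 1 rose (Fosb, log2 fold change 1.64 ± 0.44 SE, adjusted p = 0.0178) and none fell, and of 23 other immediate early genes 6 rose and 2 fell by edgeR, and 6 rose and 1 fell by DESeq2. Fos had a log2 fold change of 0.51 ± 0.40 between genotypes in these cells (adjusted p = 0.488). The 2 that fell by edgeR were Ier3, at 422 and 684 CPM in controls against 0 and 52.1 in knockouts, and the cyclin-dependent kinase inhibitor Cdkn1a. Nr4a2 also fell by edgeR and did not pass by DESeq2, at 135 and 169 CPM in controls against 0 and 31.2 in knockouts (log2 fold change -2.82 ± 0.71 SE, adjusted p = 0.0121).

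Below the threshold 51 of 10559 genes differed between genotypes (0.483%), 12 higher (0.114%) and 39 lower (0.369%). Without knockout replicate 1 the counts were 83 higher and 162 lower, and without knockout replicate 2 they were 98 higher and 78 lower. Fos was among the lower genes, at 1323 and 1097 CPM in controls against 403 and 405 in knockouts (log2 fold change -1.60 ± 0.21 SE, adjusted p = 0.0307), with Rgs1, Rgs2, the chemokine Ccl3 and the stem cell gene Pdzk1ip1. Of 11 B-cell genes 4 rose, Cd79a and Cd79b among them, and 4 of 13 neutrophil and 5 of 14 erythroid genes fell. The B-cell list summed to 116 and 221 CPM in controls against 975 and 1663 in knockouts here. Its genes passed the filter on counts largely through the knockout sums, so their rise is not a test of genotype. With cells of at least 5000 UMIs no gene passed (1262 had an unadjusted p under 0.05). Of 20 G1/S and 20 G2/M genes edgeR and DESeq2 called 0, with 5 and 0 at an unadjusted p under 0.05.

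The difference between the 2 states itself depended on genotype for 532 of 9580 genes (5.55%) in the interaction term, 309 with a more positive difference in the knockout (3.23%) and 223 with a more negative one (2.33%). The median of all genes tested was -0.35 on the log2 scale, and values are read against it. Of 10 AP-1 genes 5 had a more positive difference in the knockout, for example Jun (log2 2.60 ± 0.30, adjusted p = 1.93e-11) and Fos (1.92 ± 0.31, adjusted p = 1.07e-06). Of 30 other immediate early genes 9 had a more positive and 4 a more negative difference. Egr1, Nr4a1 and Atf3 summed to 1682 and 1529 CPM in controls against 1880 and 1677 in knockouts in the immediate early-high cells. Below the threshold they summed to 304 and 328 against 77.4 and 88.5 CPM. A more positive knockout difference was thus built into the split for genes that vary with these 3. It is no separate result on genotype. Below the threshold Fos was at 403 and 405 CPM in the knockouts and 1323 and 1097 CPM in the controls, a lower level in both knockout libraries, while its immediate early-high values overlapped between genotypes. Of 24 stem cell program genes 6 had a more negative difference and 1 a more positive one, and 4 of 11 B-cell genes a more positive one. The B-cell genes passed the filter on counts largely through the knockout sums, so their terms are not a test of genotype. The count was 124 without control replicate 1, 98 without control replicate 2 and 204 with DESeq2. Of 19 genes named for the interaction, 14 and 17 missed without control replicates 1 and 2, 11 without knockout replicate 2 and 10 with DESeq2. Jun passed each time (adjusted p = 0.0443 without control replicate 2), and Fos missed without control replicate 1 (adjusted p = 0.152) and without control replicate 2 (0.263). The share of B-cell and plasma-cell RNA moved with the same contrast, from 2.50% to 1.90% of cells in controls and from 25.6% to 86.5% in knockouts, and its part in these interactions was not tested.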

How the data were processed

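Sorted live LSK cells from 2 control and 2 knockout libraries were counted with the 10x Genomics 3′ v3.1 chemistry; per the labels each library is 1 sample, and the study states that the experiment was done in duplicate. Which libraries were sorted or prepared together is not given in the sources used here, so no batch term was fitted and p-values measure only the spread between these libraries. The authors deposited UMI counts per gene and barcode for each library, made with Cell Ranger 3.1 on mm10 according to the submitters' processing notes, and the counts as deposited were used, over 27998 genes. The 4 libraries held 60330267, 25111828, 35986936 and 54850344 UMIs. No sample was left out, and no doublet caller was run; none of the 248 immediate early-high cells exceeded 3 times its library's median UMIs.

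The cells and gene lists were chosen with earlier results of these data known. Counts were summed per library and state, with at least 5 cells per sum, and tested with edgeR 4.0.16 (R 4.3.3; filterByExpr, TMM, quasi-likelihood test, Benjamini-Hochberg over all genes tested); the 11 genes of the rule stayed in the library sizes and received no p-value in comparisons of immediate early-high cells. Over all unprimed cells only the 8 lineage and stem genes went untested. DESeq2 1.42.0, other thresholds, depth limits, thinning to 1000 UMIs (seed 11) and leaving out each library were tried as alternatives. Shares were compared with an exact permutation test over libraries, with exact (Clopper-Pearson) 95% intervals for each library. Genes were named by rule: the 12 largest rises and falls between states with the same sign in 4 libraries and a mean of at least 20 CPM, the 8 largest between genotypes with libraries that do not overlap, the 5 largest each way for the interaction, and the members of the fixed lists that the text describes; some list members are not reported here by name. Scripts were tested on simulated counts with known log2 changes of 1 and 2. Between the states over 4 libraries 17% and 76% of these were recovered. Between genotypes 9% and 48% were recovered in immediate early-high cells and 22% and 89% over all unprimed cells. In the control cells without B-cell or plasma-cell RNA 14% and 70% were recovered. These rates hold for the simulated spread, and a gene that did not pass may still have changed. Promoter sequences came from RefSeq and gene positions from GENCODE, both on GRCm38.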

Additional observations from a re-analysis of the deposited data

Results flagged for a closer look

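The values here are log2 differences of differences, the immediate early-high minus below-threshold change in the knockout libraries less that in the control libraries, and each gene passed the interaction term of edgeR's quasi-likelihood test at an adjusted p of 0.05. The difference was more positive in the knockout for the immediate early genes Fos (1.92), Fosb (2.19), Jun (2.60), Junb (1.94), Jund (1.86), Ier2 (1.62) and Btg2 (1.55). The threshold was the same in both genotypes, while the summed Egr1, Nr4a1 and Atf3 level below it was lower in the knockout. A more positive term was thus built into the split for genes that vary with these 3, and is no separate result on genotype. Of 30 genes tested on the list of other immediate early genes, 9 had a more positive term. Another 4 had a more negative one, Ier3, Zfp36l2, Myc and Cdkn1a. The difference was also more negative in the knockout for the stem cell genes Meis1 (-2.20) and Cd34 (-1.60). Of the 19 genes given in this section, 14 no longer passed without control replicate 1, 17 without control replicate 2, 1 without knockout replicate 1, 11 without knockout replicate 2 and 10 with DESeq2, and no term that was fitted changed sign. The fits without a knockout replicate covered 18 of the 19, since Rab25 was not tested there. Jun passed in all 5 of them, and Fosb and Junb missed only without control replicate 2 (adjusted p = 0.0661 and 0.104).

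The 5 largest terms each way came from genes with no UMI in one group of immediate early-high cells, so their fitted values depend on the prior count and bound nothing. Lilr4b (10.25), Hsd11b1 (9.99), Klrd1 (9.73), Rab25 (9.30) and Aldh3b1 (9.24) had 0 UMIs in the control immediate early-high cells. Elovl6 (-10.58), Upf3b (-10.41), Eng (-10.36), Guca1a (-10.17) and Thyn1 (-10.17) had 0 UMIs in the knockout ones, which were 37 cells, 32 of them with B-cell or plasma-cell RNA. The part of that RNA in these terms was not tested.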

How the results depend on the processing

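The lower share of immediate early-high cells in the knockout kept its direction under every alternative run, between 2.14 points (of all kept cells) and 43.8 points (cells of at least 3 UMIs of the genes against cells of 0), and without any 1 library it was between 18.6 and 19.8 points lower; the exact permutation p stayed at 0.333, the smallest possible, which says nothing about stability.

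Counts of genes called moved more. The threshold at 20 left 4 immediate early-high cells in knockout replicate 1, under the minimum of 5, so wherever those cells enter, its counts also lack that sum. High against low gave 96: 39 with the threshold at 20, 150 with at least 5000 UMIs, 62 with DESeq2, 335 with no filter on low counts, 51 thinned to 1000 UMIs, 0 with no library block (913 at an unadjusted p under 0.05), 206 in control libraries, 559 without B-cell and plasma-cell RNA there and 52 with DESeq2 on those, and 22 to 233 without 1 library. The share higher was 53.1%, 72.0% with at least 5000 UMIs, 69.4% with DESeq2 and 23.1% with the threshold at 20. Knockout against control in immediate early-high cells gave 435: 112 with the threshold at 20, 214 with at least 5000 UMIs, 249 with DESeq2 (88.0% higher, against 72.4%) and 221 to 429 without 1 library. Below the threshold it gave 51: 97 with the threshold at 20, 4 against cells of 0 UMIs of the genes, 0 with at least 5000 UMIs, 87 with at most 5% mitochondrial UMIs, 128 without other lineages, 80 without B-cell and plasma-cell RNA, 158 with DESeq2, 616 with no filter and 46 to 245 without 1 library. The interaction gave 532: 114, 295 and 204 with the threshold at 20, at least 5000 UMIs and DESeq2 (87.3% more positive, against 58.1%), and 98 to 542 without 1 library. All unprimed cells gave 109: 0 with at least 5000 UMIs, 0 with B-cell and plasma-cell RNA also left out (1214 at an unadjusted p under 0.05), 216 with DESeq2, 827 with no filter and 38 to 101 without 1 library. Without 1 library the share higher ranged from 9.09% to 77.7% for high against low, 61.3% to 75.2% for the knockout comparison in immediate early-high cells, 10.1% to 55.7% below the threshold, 47.3% to 77.4% for the interaction and 12.9% to 76.6% over all unprimed cells. The causes were not tested. The reversed values were Trp53inp1 in control cells without B-cell and plasma-cell RNA (-0.28, and -0.39 with DESeq2) and, below the threshold, Cd79b without other lineages (-0.69) or without B-cell and plasma-cell RNA (-0.31).

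Deviations of same-numbered libraries from their group means had r = -0.044 in immediate early-high cells and -0.190 below the threshold. With 2 libraries per genotype this cannot show whether same-numbered libraries were processed together. With a replicate block the counts were 422, 65 and 108 in the 3 genotype comparisons, and the crossed pairing gave 398 below the threshold. Not run were the tests between Nr4a1-led and Egr1-led cells (3 Nr4a1-led cells) and the knockout comparison without other lineages (0 and 1 cells). With 13 and 24 knockout cells, depth limits every statement about them.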

Other observations

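The histone deacetylase Hdac3, whose nuclear import the study examined, was at 46.3 and 34.3 CPM in controls against 86.2 and 41.7 in knockouts in the immediate early-high cells and at 36.8 and 43.5 CPM in controls against 45.9 and 39.2 in knockouts below the threshold. Of 10 nuclear pore and deacetylase genes, edgeR and DESeq2 called 0 between the states and 0 between genotypes below the threshold, with 2 at an unadjusted p under 0.05 in each comparison. RNA counts do not show where a protein is.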
